A study of Arabidopsis thaliana with 3 samples.

Results

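WRKY genes encode a plant family of transcription factors named after a conserved peptide of their DNA-binding domain. The members described here are the nuclear protein-coding genes whose symbol or whole synonym is WRKY followed by a number. This gave 71 of 27444 genes, 67 by their symbol and 4 by a synonym (ZAP1 for WRKY1, TTG2 for WRKY44, ABO3 for WRKY63 and TTR1 for WRKY16). RRS1, whose synonym is written ATWRKY52, was not a member under this wording. Binding of the SBP-domain transcription factor SPL10 was mapped by DAP-seq, which sequences the DNA that a transcription factor retains, in leaf material of Arabidopsis thaliana ecotype Col-0. The series held 3 samples: a pair of SPL10 precipitations, each with a list of called peaks, and 1 input of 19553456 read pairs, whose alignment log holds no value per gene. All samples were of the same tissue and ecotype. The labels name formaldehyde-fixed, sonicated chromatin; the source of the SPL10 protein and whether the replicates came from separate plants are not stated in the labels. Without expression data, the files show where DNA was recovered and not whether a gene responded.

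WRKY proteins bind the W-box, a short DNA element found before many defence genes. They are best known from immunity, where they act below MAP kinase cascades and salicylic acid, and from leaf senescence, and smaller numbers act in trichomes, seeds, phosphate supply and flowering. Many WRKY genes are switched on by wounding or pathogens and are themselves controlled by other WRKY proteins. SPL10 belongs to a family that is restrained by miR156 in young plants and released with age, and its protein has been reported to bind the WRKY12 and WRKY13 proteins, a pair with opposed effects on flowering time. By their domains the WRKY proteins are sorted into group I (which carries a pair of WRKY domains), the subgroups IIa to IIe, and group III, whose zinc finger differs.

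A gene was counted as bound when a shared peak had its summit in the gene or within 2000 bp of either end. Shared peaks were those of both lists that overlapped reciprocally by 50% or more, 16697 in all, out of 21500 and 21363 nuclear peaks. The fold enrichment is the authors' own value per peak, the signal at the summit over the caller's background, and strength means this fold, averaged over the replicates where 1 value is given. Counting intervals (95%, exact Poisson on tag numbers recovered from the fold and p-value) cover counting error only. The median summit carried 47 tags in replicate 1 and 44 in replicate 2. The replicates were counted as 1 sample, so each value is printed for both, replicate 1 first, and none has a standard deviation.

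Of the WRKY genes, 47 of 71 were bound, or 66.2% (exact binomial 95% interval 54% to 77%). Among the other coding genes the share was 59.9%, 16392 of 27373, which lies inside the interval of the WRKY genes. The share of the family was therefore close to that of the genome. Among the 5000 shared peaks of highest fold, which start at 5.53-fold, 17 WRKY genes had a peak (23.9%, 14.6% to 35.5%), against 22.6% of other coding genes. The bound WRKY genes had a median strongest peak of 4.86-fold (3.27 to 5.79), against 4.41-fold (4.35 to 4.45) for other bound coding genes. Genes so named of 3 other transcription factor families are given beside them. MYB genes were bound in 77 of 125 cases (61.6%), with a median of 4.47-fold (4.17 to 5.2), and NAC genes in 67 of 100 (67%), with a median of 4.61-fold (3.89 to 5.92). The few bHLH genes were bound in 11 of 22 cases (50%, 28.2% to 71.8%), with a higher median of 8.07-fold and a wide interval (3.4 to 9.9) that holds the medians of the WRKY genes and of other coding genes.

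**Figure D1:**
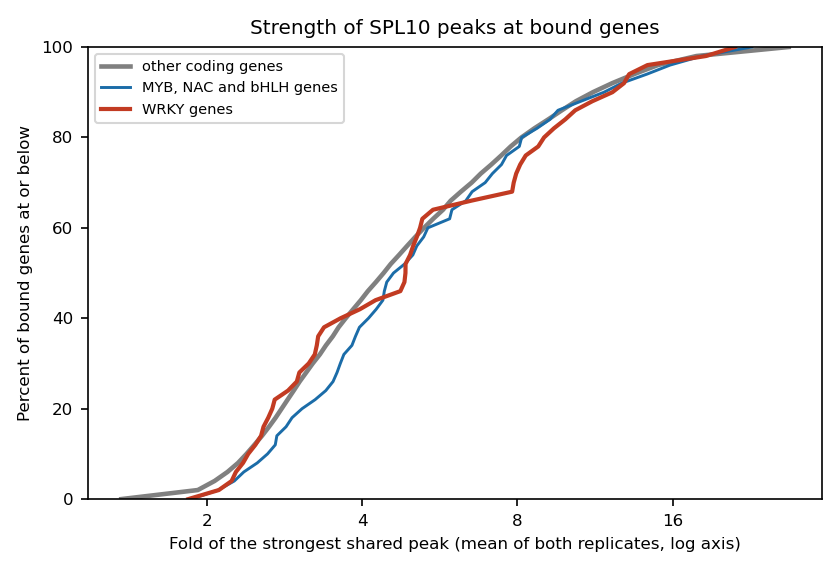
Cumulative share of bound genes (percent, vertical axis) by the fold of their strongest shared peak (mean of both replicates, log axis) for WRKY genes, for MYB, NAC and bHLH genes together, and for other coding genes. The 3 lines run close together, with medians of 4.86-fold, 4.60-fold and 4.41-fold, and the line of the WRKY genes is flat between 5.79-fold and 7.80-fold, where no member lies.

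Against this background, a few members carried strong peaks. WRKY57, which acts in drought tolerance and restrains jasmonate-induced leaf senescence, had the highest fold of the family, 20.5 in replicate 1 and 21.7 in replicate 2. The summit, in a peak called in replicate 1 at chr1:26057095-26057556 (TAIR10, as are all coordinates here, each from replicate 1), was inside the gene, 1056 bp from the nearer end, and ranked 83 of all shared peaks. WRKY31, a close relative of WRKY6 and WRKY42, followed with 18.2-fold and 18.5-fold (chr4:11694175-11694609), inside the gene and 207 bp from an end. A second peak inside WRKY31 reached 5.11-fold and 4.77-fold. In both replicates these strongest peaks stood above those of every other WRKY gene.

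WRKY33, which drives synthesis of the phytoalexin camalexin and resistance to necrotrophic fungi, had 12.97-fold (counting interval 11.2 to 15) and 12.6-fold (10.8 to 14.7). The summit lay near the middle of the gene (chr2:16109117-16109580). WRKY58, described as a restraint on systemic acquired resistance, had 11.6-fold (9.85 to 13.5) and 12.2-fold (10.4 to 14.2) inside the gene. WRKY42, a regulator of phosphate transporter genes, had 10.7-fold (9.07 to 12.5) and 10.4-fold (8.76 to 12.3), inside the gene and 223 bp from an end. WRKY4, which with WRKY3 contributes to resistance against necrotrophs, had 10.6-fold (9.01 to 12.5) and 9.59-fold (8.01 to 11.4), 51 bp outside the lower-coordinate end, with a second peak of 5.54-fold and 5.14-fold at 557 bp. For each of these 4 genes the counting intervals of the replicates overlapped.

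The other members above 10-fold carried peaks whose nearest coding gene was another one. WRKY9 had 14.6-fold and 12.5-fold at 1504 bp, where the summit lay 622 bp from the coding gene AT1G68140. WRKY32 had 13.1-fold in each replicate at 1908 bp, with the summit inside NFD1, and its nearer peak, at 324 bp, reached 3.001-fold and 2.999-fold. In all, 8 members exceeded 10-fold, 5 of them with the summit inside the member. The strongest 10% of bound genes started at 12.2-fold among WRKY genes and at 11.2-fold among other coding genes. Peaks above 10-fold were thus not particular to the family. Across the bound members the strongest peak was nearest to the member in 38 of 47 cases, and nearer to another coding gene at WRKY9, WRKY11, WRKY13, WRKY25, WRKY26, WRKY27, WRKY32, WRKY39 and WRKY63. In 6 of those 9 the summit lay inside the other gene. No such counts are given here for other coding genes.

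**Figure D2:**
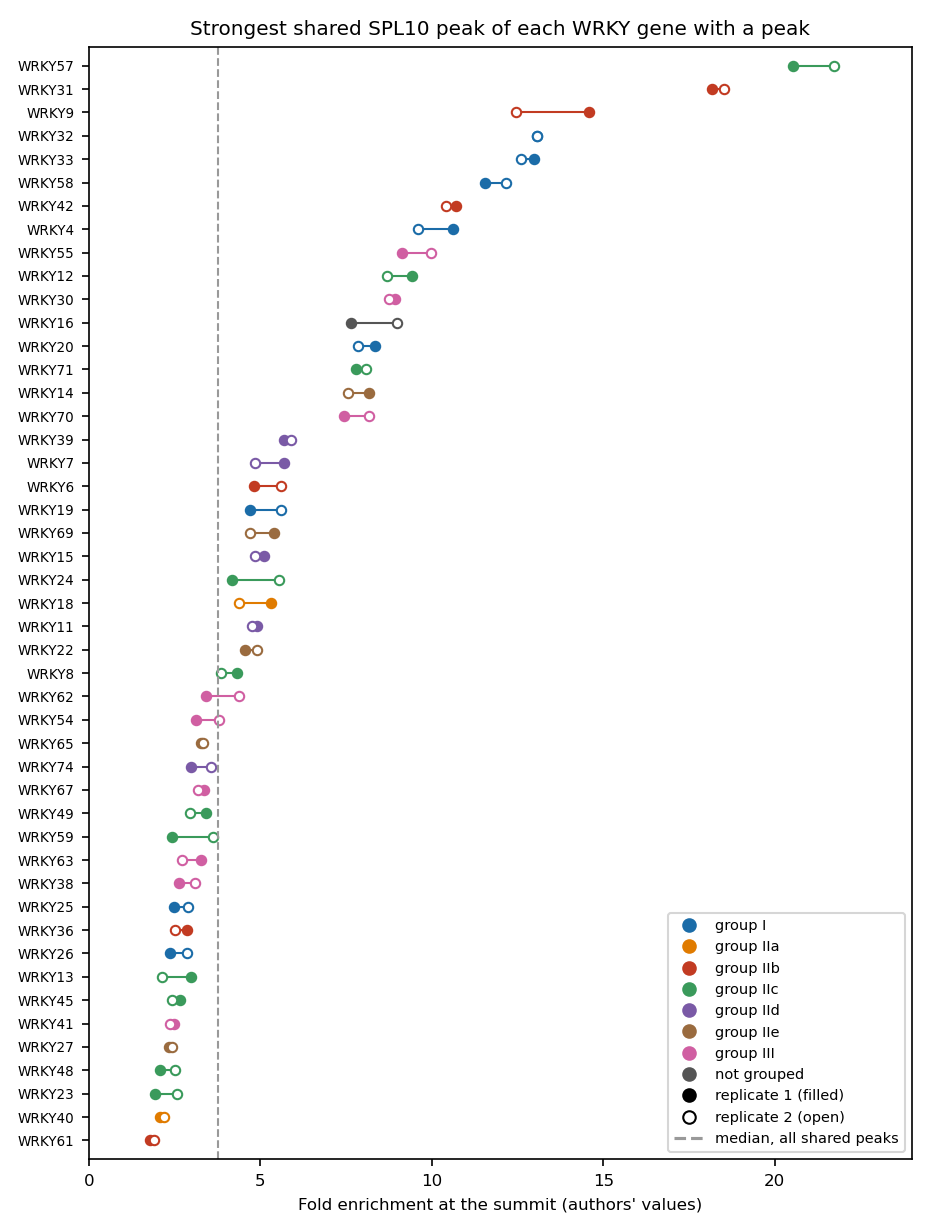
Fold enrichment at the summit (horizontal axis, the authors' values) of the strongest shared peak of each of the 47 bound WRKY genes, replicate 1 filled and replicate 2 open, coloured by group. WRKY57 and WRKY31 stand apart at the top, and the means of 19 genes lie below the median of all shared peaks (dashed line, 3.77-fold). That line takes every shared peak, while the dots take the strongest of each gene. The median of the strongest peak was 4.86-fold for bound WRKY genes and 4.41-fold for other bound coding genes.

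Among genes listed for development and flowering, 4 of 7 were bound (57.1%, 18.4% to 90.1%), near the 59.9% of other coding genes. WRKY12, which shapes the pith and promotes flowering, had a peak 432 bp past the higher-coordinate end (chr2:18449351-18449710), of 9.43-fold (7.9 to 11.2) and 8.69-fold (7.18 to 10.4). A further peak inside WRKY12 (chr2:18447687-18448036) had 6.01-fold (4.93 to 7.26) and 8.39-fold (6.96 to 10). WRKY13, which acts against WRKY12 in flowering time and promotes stem lignin, had 2.99-fold (2.17 to 4.02) and 2.13-fold (1.43 to 3.05) at 1766 bp, nearer to the small gene PLS. The intervals of the strongest WRKY12 peak and of the WRKY13 peak did not overlap in either replicate. WRKY71, also called EXB1, which promotes shoot branching, had 3 peaks: 7.80-fold and 8.08-fold inside the gene, 5.89-fold and 4.24-fold at 273 bp, and 4.55-fold and 3.56-fold at 922 bp. The last of these lay nearer to the coding gene AT1G29870. WRKY23, an auxin-responsive gene of root and embryo patterning, had 1.93-fold and 2.58-fold, at percentile 10.7 of all shared peaks. WRKY44 (TTG2, of trichomes and the seed coat), WRKY10 (MINI3, of endosperm growth) and WRKY2 (of zygote polarity) had none in reach.

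Genes listed for leaf senescence were bound in 4 of 5 cases, with WRKY57 as the strongest. That share is of the 5 genes listed and not of senescence genes in general. The interval of this share (28.4% to 99.5%) holds the 59.9% of other coding genes. WRKY70, which balances salicylic acid against jasmonate responses and delays senescence with WRKY54, had a peak inside the gene (chr3:20908786-20909144), of 7.45-fold (6.1 to 9) and 8.16-fold (6.7 to 9.84). Weaker peaks flanked WRKY70 at 260 bp (2.60-fold and 2.68-fold) and at 1680 bp (2.50-fold and 3.41-fold). WRKY6, a senescence and phosphate regulator, had 3 peaks, all outside the gene, the strongest of 4.83-fold and 5.595-fold at 1446 bp. WRKY54 shared its only peak, of 3.13-fold and 3.79-fold, with its neighbour WRKY55, since the summit lay between them, 328 bp from WRKY54 and 592 bp from WRKY55. WRKY55, also linked to senescence but not listed, had in addition 9.15-fold (7.64 to 10.9) and 9.97-fold (8.35 to 11.8) inside the gene. WRKY53, an early promoter of senescence, was not bound, and the nearest shared peak stood 2544 bp away at 4.69-fold in each replicate.

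Of 10 immune regulators 6 were bound (60%, 26.2% to 87.8%), against 59.9% of other coding genes. WRKY33 was the 1 among them with a peak in the strongest 5000 (10%, 0.253% to 44.5%), against 22.6% of other coding genes. That share is of the 10 genes listed and not of immune WRKY genes in general. WRKY4, WRKY16, WRKY58 and WRKY70, given defence-related roles in this text but not listed, each had a peak in the strongest 5000. WRKY3 and WRKY72, likewise not listed, were not bound. Of the subgroup IIa genes, which act together in basal defence, WRKY18 had 3 peaks, the strongest of 5.33-fold (4.2 to 6.66) and 4.39-fold (3.35 to 5.66) at 864 bp. WRKY40 had 2.07-fold (1.41 to 2.95) and 2.201-fold (1.49 to 3.14) at 1776 bp, and WRKY60 was not bound. WRKY22, at the end of the flagellin-triggered MAP kinase cascade, had 4.55-fold and 4.92-fold at 584 bp, while WRKY29, named beside it in that cascade, was not bound. WRKY62 and WRKY38, restraints on basal defence, had 3.42-fold and 4.39-fold at 18 bp, and 2.64-fold and 3.11-fold inside the gene. WRKY46 and WRKY28, both tied to salicylic acid responses, had no shared peak in reach. WRKY16 (TTR1), an immune receptor that carries a WRKY domain, had 7.65-fold (6.39 to 9.09) and 8.98-fold (7.56 to 10.6) inside the gene, 370 bp from an end.

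Of the regulators listed for phosphate, WRKY42 is given above, WRKY45 had 2.66-fold and 2.43-fold inside the gene, and WRKY75 had none. All 3 genes listed for heat and drought were bound, a share whose interval (29.2% to 100%) holds the 59.9% of other coding genes. WRKY57, which also acts in drought tolerance, was listed under senescence, so the low folds below are those of the 3 genes listed and not of drought genes in general. WRKY25 had 2.50-fold and 2.88-fold, WRKY26 had 2.38-fold and 2.85-fold, and WRKY63 (ABO3, of the abscisic acid response) had 3.28-fold and 2.72-fold. At each of these 3 genes the summit lay inside a neighbouring coding gene. They stood between percentiles 21.9 and 33.4 of all shared peaks. The remaining members of the 15 strongest were WRKY30, of the oxidative stress response, with 8.93-fold and 8.76-fold at 1035 bp, WRKY20 with 8.33-fold and 7.86-fold inside the gene, and WRKY14 with 8.16-fold and 7.56-fold at 1132 bp. The weakest of all was WRKY61, at 1.79-fold and 1.90-fold.

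Sorted by protein group, group I had 8 of 14 genes bound with a median strongest peak of 9.10-fold (2.61 to 13.1). Subgroup IIb had 6 of 8 bound with a median of 7.89-fold (1.84 to 18.3). In subgroup IIb the close relatives WRKY31 and WRKY42 both had a peak above 10-fold inside the gene, while no peak of WRKY6 lay inside WRKY6. The summits lay 207 bp from the higher-coordinate end of WRKY31 and 223 bp from the lower-coordinate end of WRKY42. Without strand, whether these ends correspond is not known. Lower medians were found in subgroup IIc, with 11 of 18 bound at 3.19-fold (2.29 to 9.06), and in group III, with 9 of 13 bound at 3.46-fold (2.87 to 8.85). Subgroup IId had 5 of 7 bound, all between 3.27-fold and 5.79-fold, IIe 5 of 7 between 2.385-fold and 7.86-fold, and IIa 2 of 3. With so few genes in a group these intervals are wide and overlap one another, and differences between groups were not tested. The shares bound ran from 57.1% in group I to 75% in subgroup IIb. The exact binomial interval of each group holds the 59.9% of other coding genes. The interval of each group's median likewise holds their 4.41-fold. Close relatives could fall on either side: WRKY4 was bound and WRKY3 was not.

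The bound members not yet described lay at or below 5.90-fold in both replicates. WRKY39 led them with 5.68-fold and 5.90-fold, in a summit inside a neighbouring coding gene. Other subgroup IId genes, whose proteins bind calmodulin, followed with 5.68-fold and 4.84-fold inside WRKY7, 5.11-fold and 4.84-fold inside WRKY15, 4.90-fold and 4.77-fold at WRKY11, and 2.99-fold and 3.56-fold at WRKY74. WRKY19, WRKY69, WRKY24 and WRKY8 had mean folds of 5.14, 5.04, 4.86 and 4.10, all but WRKY24 with the strongest summit inside the gene. The rest, WRKY65, WRKY67, WRKY49, WRKY59, WRKY36, WRKY41, WRKY27 and WRKY48, ran from 3.30 down to 2.29 in mean fold and so lay below the median of all shared peaks.

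The strongest peak was inside the gene at 22 of 47 bound members (46.8%, 32.1% to 61.9%) against 33.5% of other bound coding genes, which lies inside the interval. Over all assigned peaks the shares were closer, 28 of 72 (38.9%, 27.6% to 51.1%) against 35.2%. The strongest peak lay outside within 1000 bp at 13 members (27.7%, 15.6% to 42.6%), against 33.1% of other bound coding genes. It lay 1000 to 2000 bp away at 12 (25.5%, 13.9% to 40.3%), against 33.4%. Counted over gene bodies alone, 26 of 71 WRKY genes (36.6%, 25.5% to 48.9%) and 26.6% of other coding genes held a shared summit. Members had up to 3 peaks each: 28 had 1, 13 had 2 and 6 had 3 (WRKY6, WRKY11, WRKY18, WRKY30, WRKY70 and WRKY71). More than 1 peak was found at 26.8% of WRKY genes and at 22.3% of other coding genes, which had up to 8. The annotation used here gives no strand, so which end of a gene is its start was not used.

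**Figure D3:**
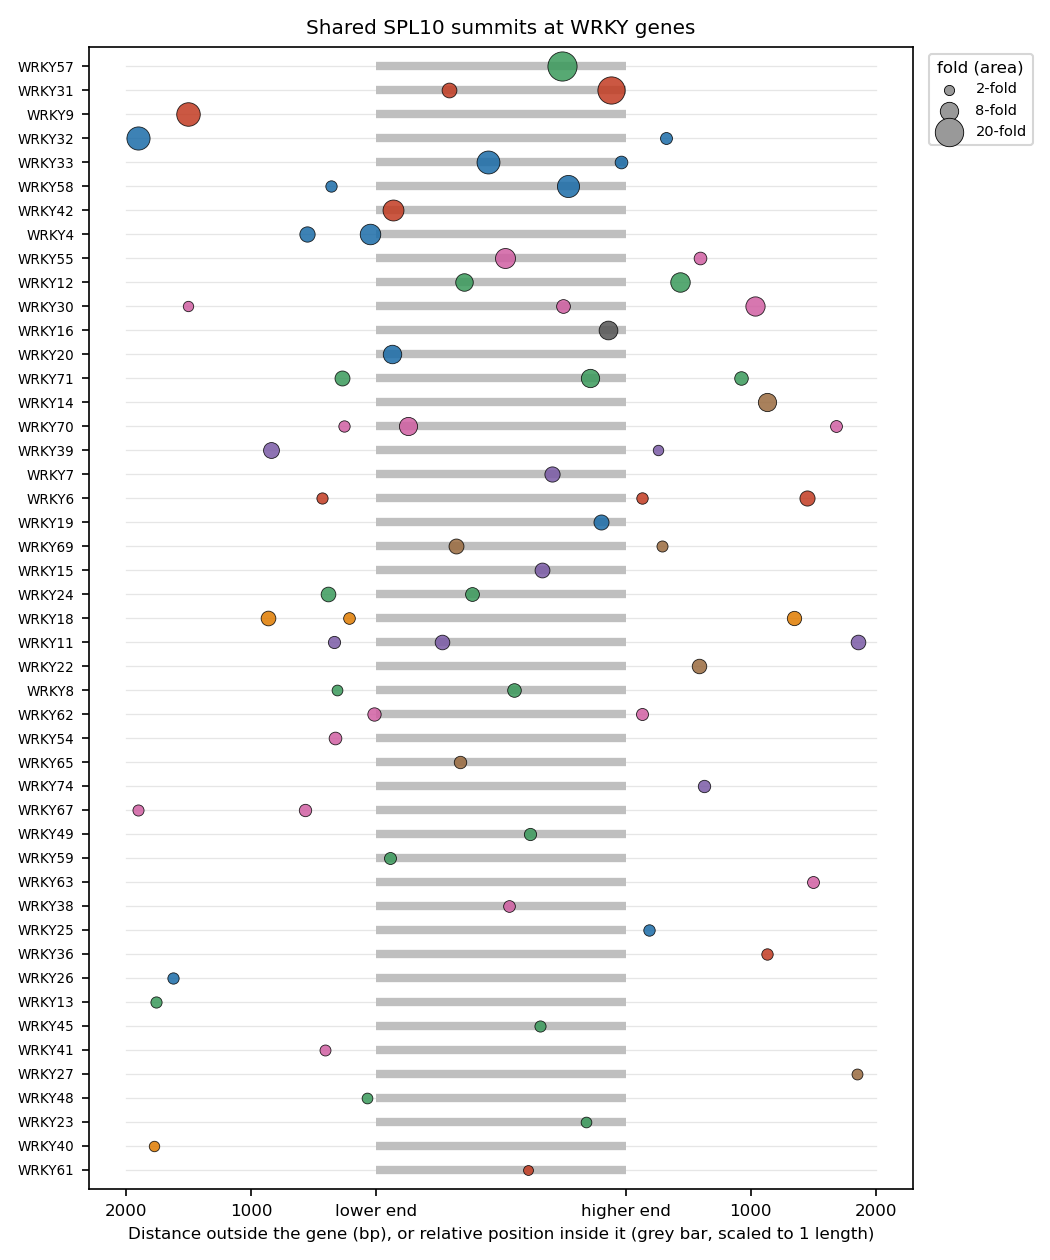
Position of every shared summit at the 47 bound WRKY genes, inside the gene (grey bar, each gene scaled to the same length) or outside it by distance in bp from the lower-coordinate or higher-coordinate end; dot area grows with fold and colours are the groups. The strongest peaks of WRKY57, WRKY31, WRKY33, WRKY58 and WRKY42 lie inside the genes, and those of WRKY9 and WRKY32 lie over 1500 bp outside.

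How the WRKY genes compared with other genes turned on which DNA was counted. When each summit was given only to its nearest coding gene, 41 WRKY genes (57.7%, 45.4% to 69.4%) but only 39.3% of other coding genes held one. MYB, NAC and bHLH genes together reached 51.4% (45% to 57.8%) by the same count, inside the interval of the WRKY genes. The WRKY genes also had more room: a median of 2628 bp within reach of their ends was free of coding genes, against 2000 bp for other coding genes and 2954 bp for the MYB, NAC and bHLH genes. In the third of least room, 45.8% (25.6% to 67.2%) of 24 WRKY genes and 31.6% of other genes were nearest to a summit, and in the third of most room 70.8% (48.9% to 87.4%) of 24 and 55.5%. When gene bodies were left out beyond 200 bp from each end, the direction turned, with 46.5% (34.5% to 58.7%) of WRKY genes and 48.3% of other coding genes. The part of gene spacing in these shares was not tested.

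**Figure D4:**
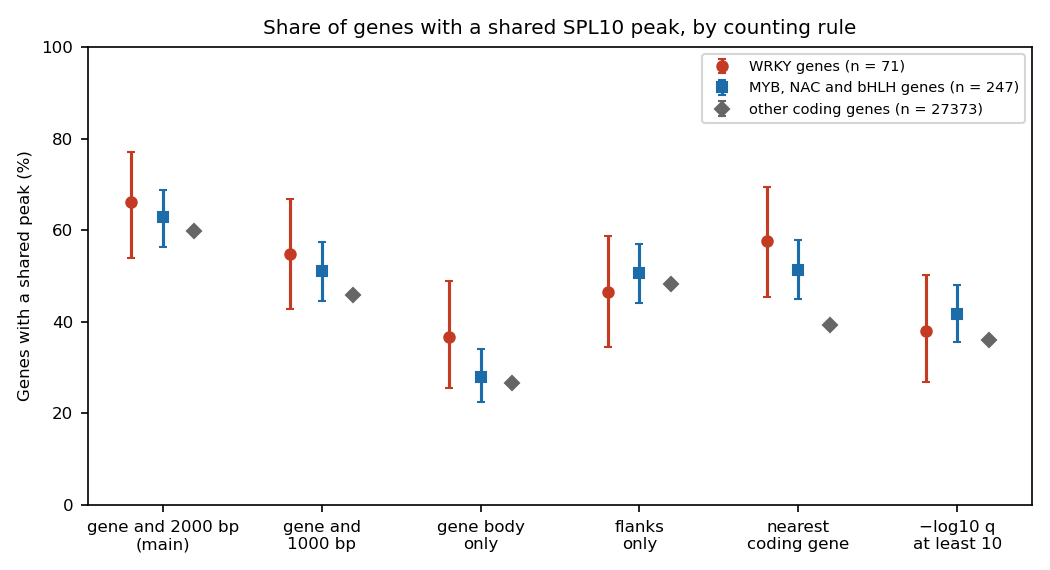
Percent of genes with a shared SPL10 peak (vertical axis) under 6 counting rules for WRKY genes, for MYB, NAC and bHLH genes together and for other coding genes, with exact binomial 95% intervals as bars. The interval of the WRKY genes holds the share of other coding genes under every rule shown but the nearest-gene rule, where it runs from 45.4% to 69.4% against 39.3%.

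A longer gene gives a longer window, and the WRKY genes were of usual length, with a median of 2110 bp against 2078 bp. In 4 classes split at the quartiles of WRKY gene length, the share of WRKY genes bound was 55.6% against 52.3% of other genes in the shortest, 66.7% against 57.8% in the next, 76.5% against 60.3% in the third and 66.7% against 68.2% in the longest. Each interval of the WRKY genes, of 17 or 18 genes, holds the share of other genes. The median folds of bound WRKY genes in the same order were 3.27 (2.87 to 7.94), 4.09 (2.42 to 7.8), 4.86 (2.68 to 11.9) and 7.98 (4.10 to 10.6), against 4.23, 4.42, 4.47 and 4.51, and each interval holds the value of the other genes.

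The 24 members without a shared peak in reach were WRKY1, WRKY2, WRKY3, WRKY10, WRKY17, WRKY21, WRKY28, WRKY29, WRKY34, WRKY35, WRKY43, WRKY44, WRKY46, WRKY47, WRKY50, WRKY51, WRKY53, WRKY56, WRKY60, WRKY64, WRKY66, WRKY68, WRKY72 and WRKY75. Of these, 10 had in reach a peak without a partner of enough overlap in the other replicate, of 1.45-fold to 2.76-fold, and 14 had none in either list. Such folds are at the weak end of the lists, where a site can be called in 1 replicate and missed in the other, so these genes cannot be called free of binding at this depth. The nearest shared peak stood 2234 bp away at WRKY46 and 15509 bp away at WRKY51, with a median of 4962 bp. The farthest summits still counted were those of WRKY32 at 1908 bp and of the weaker WRKY67 peak at 1907 bp, and both genes also had a nearer one.

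The ratio of replicate 2 to replicate 1 at the strongest peaks ran from 0.711 at WRKY13 to 1.5 at WRKY59, with 26 members higher in replicate 2 and 21 in replicate 1. At all 44 members with an interval in both replicates the intervals overlapped. This comparison and the test that follows took only shared peaks, 77.7% of those of replicate 1 and 78.2% of replicate 2. Sites called in 1 replicate alone were left out, so agreement was in part selected for. For 0 peaks of WRKY genes did the tag number differ between the replicates at an adjusted p under 0.05 (exact binomial test, two-sided, Benjamini-Hochberg over 16696 shared peaks), and in the whole genome 0.00599% did. At an unadjusted p under 0.05 there was 1, the second peak of WRKY71 (exact p = 0.0496).

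Genes that work with WRKY proteins were bound about as often as the WRKY genes: 23 of 34, or 67.6%, with a median of 4.72-fold, against the same 59.9% of other coding genes. In the salicylic acid list 8 of 11 were bound, with PAD4, a regulator of defence signalling, at 7.80-fold and 7.52-fold in a summit nearer to another coding gene, and ICS1, the synthesis enzyme, at 4.14-fold and 4.71-fold. NPR1, the salicylic acid receptor and coactivator, had 4.40-fold and 4.47-fold, while NPR3, SAG101 and CBP60G had none. Of the genes of camalexin synthesis, a pathway that WRKY33 activates, 4 of 5 were bound, with CYP71A13 at 7.09-fold and 8.39-fold in a summit that lay inside a neighbouring coding gene, and PAD3 had none. VQ proteins, which bind WRKY domains, had 2 of 5 genes bound, led by SIB1 at 6.60-fold and 6.13-fold. Seed and trichome genes had 4 of 5 bound, among them the trichome regulator GL3 at 6.30-fold and 7.50-fold and the endosperm kinase gene IKU2 at 7.09-fold and 6.199-fold in a summit inside the neighbouring gene BCAT4, whereas TTG1 had none. Of the phosphate genes 3 of 4 were bound, with the transporter PHT1;1 at 5.82-fold and 5.595-fold, and of the senescence genes 2 of 4, with the NAC genes ORE1 and NAP not bound.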

How the data were processed

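Peaks came from 2 SPL10 precipitations. The 1 input holds no peaks, and its log was read for its read pairs only. Per the labels, chromatin was fixed and sonicated. Cutadapt and TAIR10 appear in the submitters' processing notes. The deposited files have no header, and their peak names show that MACS was run on each replicate; its version, cutoff and control were not given in the sources used here. Each peak carries the authors' fold (a ratio to the caller's background) and, for the summit, −log10 of p and of q, with a deposited score that follows the q-value.

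The summit of a shared peak was the mean of both summits. The authors' fold and −log10 of p together gave the tag numbers (21499 of 21500 and 21363 of 21363 p-values matched; background of 10.2 scaled tags), a step tested on simulated data. Intervals were left out above 198 tags, a limit set at the width in bp of the narrowest peak. Shares have Clopper-Pearson intervals and medians order-statistic intervals at 95%. With 5 or fewer bound genes the interval of the median is their full range, which covers less than 95%. No set test was run. Genes came from a RefSeq table of TAIR10.1, used for names, neighbours and distances; no sequence was used here, so the planned motif search and the grouping by protein sequence were not run and groups follow published classes. All 34 partner genes matched by locus tag. Nothing says that the replicates came from separate plants, so the replicate test measures counting only. Members and lists were chosen with earlier results of these data known. Named were the 15 strongest bound members, 28 members of known role, bound or not, and the 3 weakest; other names were chosen after their values were seen. Python 3.11.15, numpy 2.4.6, pandas 2.3.3, scipy 1.17.1 and matplotlib 3.10.9 were used. Alternatives changed overlap, reach, peak strength, assignment, members, gene length and replicates.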

Additional observations from a re-analysis of the deposited data

How the results depend on the processing

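The WRKY share stayed above that of other coding genes under every alternative run except flanks only (46.5% against 48.3%, medians 3.45-fold against 4.22-fold); the cause of these shifts was not tested beyond what each rule counts. The other pairs that moved were 38% against 36% with −log10 q of at least 10 (medians 7.94-fold against 6.52-fold) and 36.6% against 26.6% with gene bodies only. Other coding genes moved to 61.7% with any overlap, 49.6% with 80% overlap, 45.8% with 1000 bp and 39.3% with the nearest gene only, and their median to 4.69, 4.17 (1000 bp), 3.83 (gene body), 4.22 (flanks) and 4.16 (nearest). With 1 replicate alone WRKY genes were at 74.6%, other coding genes at 69.4% to 69.8%, with medians of 4.33 to 4.39 and 3.91 to 3.94. Among the strongest 7500 peaks 38% of WRKY genes had one, against 32.5% of other coding genes. Counting RRS1, a choice made after seeing the data, gave 48 of 72 (66.7%).

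Of the 30 named bound genes, all but WRKY61 had a shared peak with 80% overlap. All had a peak in either replicate alone. A bound gene has a peak in both lists by definition, so this count was largely fixed beforehand and is no check. With replicate 1 alone the strongest peak of WRKY23 was another one, not shared, of 2.245-fold. With 1000 bp, 6 had none (WRKY9, WRKY13, WRKY14, WRKY26, WRKY40 and WRKY63) and WRKY6, WRKY30 and WRKY32 fell to 2.699-fold, 4.18-fold and 3-fold. No paired analysis was possible because the result comes from no test between groups. The weak peak of WRKY40 rested on 28 tags in each replicate, with a counting interval of 1.41 to 2.95 in replicate 1. How weak peaks depend on depth was not tested.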

Other observations

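For several members without a peak in reach, the nearest shared peak farther out was strong. For others it was weak, as at WRKY68 with 2.22-fold and 1.88-fold. No share of strong nearest peaks is given here for other coding genes. WRKY43 had one 2309 bp away at 8.73-fold and 7.79-fold. The nearest to WRKY29 stood 3354 bp away at 17.7-fold and 19.2-fold, that to WRKY72, an immune regulator of subgroup IIb, 3152 bp away at 12.7-fold and 11.3-fold, and that to WRKY2 4702 bp away at 11.2-fold and 12.9-fold. WRKY60 had one 6656 bp away at 14.8-fold and 15.5-fold. These genes were named after their values were seen, and which coding genes lie between them and these summits was not examined.

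RRS1, an immune receptor with a WRKY domain, had 4.18-fold and 3.81-fold at 465 bp, in a summit inside its partner gene RPS4, and 3.91-fold and 2.42-fold inside the gene.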
